A study of Homo sapiens with 8 samples.

Results

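The genes described here encode the membrane skeleton of the red cell, measured in HEL, a line of human erythroleukaemia cells in which JAK2 carries an activating mutation. The 9 members are SPTB, ANK1, EPB41, EPB42, SLC4A1, ADD1, ADD2, ADD3 and TMOD1. They were taken by name, as the probe sets that the platform annotation assigns to 1 of them alone: 32 of the 54675 probe sets on the array, of which 28 passed a filter on low signal. Each gene was read from its probe set of highest mean signal, and the others were kept as a check; all 9 genes passed the filter and were tested among 14162 genes.

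Expression was measured on 8 Affymetrix arrays, 2 in each of 4 groups. CEP701 arrays came from HEL cells given 0.5 µM CEP701 (lestaurtinib, an inhibitor of JAK2 and FLT3 kinases) for 16 h, and DMSO arrays from cells given the vehicle for 16 h. PRMT5 shRNA arrays came from a stable HEL line carrying a pLKO lentivirus with 1 shRNA against PRMT5, an arginine methyltransferase, and scramble shRNA arrays from HEL cells carrying a scramble shRNA. The series set the drug profile beside that of the knockdown. All 4 groups are labelled HEL, and the labels describe the same serum-containing medium for them. The labels name no other hairpin against PRMT5, so an effect of the hairpin's sequence and of PRMT5 loss cannot be told apart. Whether a group's arrays stem from separate cultures is not stated, and the p-values cover no more than the spread among these arrays, part or all of which may be technical. The number of arrays, 2 per group, limits the precision of every value.

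Beneath the red cell membrane, spectrin chains form a net that is fastened to the bilayer at separate kinds of site. ANK1 (ankyrin) ties beta-spectrin (SPTB) to the anion exchanger SLC4A1, with EPB42 bound beside it. At the junctions of the net, EPB41 strengthens the contact of spectrin with short actin filaments, adducins (ADD1 alpha, ADD2 beta, ADD3 gamma) cap the fast-growing ends of those filaments and recruit spectrin, and TMOD1 caps the slow-growing ends. Red cell adducin is made mainly of the alpha and beta chains, and the gamma chain is found widely in other tissues. Inherited loss of SPTB, ANK1, EPB42 or SLC4A1 is a known cause of spherocytosis, and loss of EPB41 of elliptocytosis.

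To show the DNA at the starts of the genes on which the results turn, the 250 bases before each start are given for ADD1, which differed in both treatments, and for EPB42 and ADD3, which differed most between the drug and shRNA arms. They are from the RefSeq table of GRCh38.p14. Windows were taken for 7 of the 9 members and none for ANK1 or SLC4A1. No start was found under the name SLC4A1. ANK1 lies on a chromosome from which no member windows were taken, so whether the table holds a start for it is not shown. ADD1 lies at chr4:2843594-2843843 on the plus strand and EPB42 at chr15:43221019-43221268 on the minus strand. ADD3 has 3 starts, on the plus strand at chr10:109996123-109996372, chr10:110005697-110005946 and chr10:110007734-110007983. Capitals mark matches, on either strand, to GATAA (the core bound by GATA factors), CACCC (a core bound by KLF factors) and TTCNNNGAA (the STAT5 core). All are written 5′ to 3′ on the gene's strand.
ADD1: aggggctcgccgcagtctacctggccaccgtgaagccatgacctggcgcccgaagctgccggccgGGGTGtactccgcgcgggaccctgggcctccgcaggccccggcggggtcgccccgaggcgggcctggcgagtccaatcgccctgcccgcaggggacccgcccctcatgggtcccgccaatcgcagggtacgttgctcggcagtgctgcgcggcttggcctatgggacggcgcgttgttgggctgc
EPB42: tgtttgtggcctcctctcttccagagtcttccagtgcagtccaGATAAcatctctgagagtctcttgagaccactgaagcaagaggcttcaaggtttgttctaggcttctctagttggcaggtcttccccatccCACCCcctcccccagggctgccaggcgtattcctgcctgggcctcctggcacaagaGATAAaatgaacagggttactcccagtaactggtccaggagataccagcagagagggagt
ADD3, first start: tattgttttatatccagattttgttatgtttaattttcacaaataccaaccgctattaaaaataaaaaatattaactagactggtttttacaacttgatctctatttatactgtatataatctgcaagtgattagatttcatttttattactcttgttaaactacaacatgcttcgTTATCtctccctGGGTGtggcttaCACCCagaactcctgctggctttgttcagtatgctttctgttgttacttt
ADD3, second start: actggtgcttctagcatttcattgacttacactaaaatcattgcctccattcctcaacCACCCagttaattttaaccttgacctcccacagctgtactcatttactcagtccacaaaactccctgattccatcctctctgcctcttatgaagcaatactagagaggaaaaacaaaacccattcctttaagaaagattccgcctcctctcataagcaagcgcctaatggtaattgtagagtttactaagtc
ADD3, last start: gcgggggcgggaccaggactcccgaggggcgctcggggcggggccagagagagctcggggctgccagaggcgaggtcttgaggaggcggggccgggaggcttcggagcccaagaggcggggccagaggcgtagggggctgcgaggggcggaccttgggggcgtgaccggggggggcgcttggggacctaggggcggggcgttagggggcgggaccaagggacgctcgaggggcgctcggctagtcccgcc
The EPB42 window held GATAA at -207 and -60 and CACCC at -116, counted from the start. The first ADD3 window held GATAA at -74, read on the other strand, with CACCC at -62 and -50, and the second held CACCC at -192. ADD1 had a single CACCC match, at -185, in a window of 74.4% G and C, and the last ADD3 window had no match. None of these motifs overlapped another in these windows. Of all 35116 windows of this length in the table, 20.4% held GATAA, 54.7% CACCC and 6.57% TTCNNNGAA. Among the 13 windows taken for members, which leave out ANK1 and SLC4A1, the numbers were 3, 9 and 0. A match is a run of letters and not a measured site, and the arrays do not tell which ADD3 start was used.

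The targeted gene was checked first. PRMT5 had signals of 664 and 315 on the PRMT5 shRNA arrays, against 1794 and 984 on the scramble arrays, lower in each of the 2 replicate pairs (shRNA-arm arrays that share a title suffix). Its log2 difference of -1.52 ± 0.35 (SE) did not pass limma's test over all genes (adjusted p = 0.217; -2.04 to -0.99 over the alternatives). It passed with the replicate block, which fits those pairs (adjusted p = 8.91e-05). It did not pass when the shRNA arm was fitted alone (adjusted p = 0.910). Leaving out the first or the second pair, which leaves 1 array in each shRNA group, gave log2 differences of -1.61 and -1.42. The arms differed far more from each other than the groups within them: Pearson's r between arrays across genes was 0.964 to 0.978 within a group and 0.804 to 0.845 between arms. Of 17 erythroid markers 12 were measured, with a summed signal of 72494 to 78097 on CEP701, 72203 to 81098 on DMSO, 74198 to 117699 on PRMT5 shRNA and 71881 to 99961 on scramble arrays. Single genes weigh heavily in this sum. TFRC alone had 46343 and 42287 with CEP701, 44510 and 51632 with DMSO, 44567 and 35797 with PRMT5 shRNA and 42935 and 33295 with scramble. Like sums therefore do not show like levels of the other markers. The sum of 8 megakaryocyte markers was 14191 to 14337 on CEP701, 15150 to 15250 on DMSO, 49498 to 87888 on PRMT5 shRNA and 63162 to 118050 on scramble arrays. The sum of 6 monocyte and granulocyte markers was 8125 to 9336 on CEP701, 5541 to 5585 on DMSO, 40988 to 69336 on PRMT5 shRNA and 56822 to 66421 on scramble arrays. Lymphocyte markers (6 measured) summed to at most 6713 and epithelial and fibroblast markers (6 measured) to at most 6226 on any array. Both sums were higher on every shRNA-arm array than on any drug-arm array, but single genes weigh in them too. NKG7 had 3899 and 6310 with scramble against 189 and 263 with DMSO, while CD2 went the other way, at 119 and 110 against 854 and 983. In scramble against DMSO cells, 2 lymphocyte markers were called higher and 1 lower. Of the epithelial and fibroblast markers 3 were called higher and 1 lower, beside 25.5% and 20.3% of all genes. Single markers set the arms apart although all 8 arrays are labelled HEL: MPO had 10913 and 18281 with PRMT5 shRNA and 16676 and 20593 with scramble, against 63.5 and 4.13 with CEP701 and 20.8 and 41.4 with DMSO. Embryonic globin HBE1 had 772 and 298 with PRMT5 shRNA and 786 and 543 with scramble, against 11721 and 10385 with CEP701 and 9433 and 9887 with DMSO. Other erythroid genes went the other way: adult globin HBB had 48761 and 22649 with PRMT5 shRNA and 38265 and 21286 with scramble, against 1065 and 806 with CEP701 and 1509 and 1613 with DMSO. AHSP, a chaperone of globin, had 6136 and 1263 with PRMT5 shRNA and 3069 and 1185 with scramble, against 71.4 and 74.2 with CEP701 and 57.2 and 87.5 with DMSO. Whether the arms are the same cells was not tested. The spread, the filter and the choice of probe set used all 8 arrays, so comparisons within an arm also rest on the other arm in these respects. In bulk RNA, fewer cells of a type and less RNA per cell cannot be told apart.

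**Figure D1:**
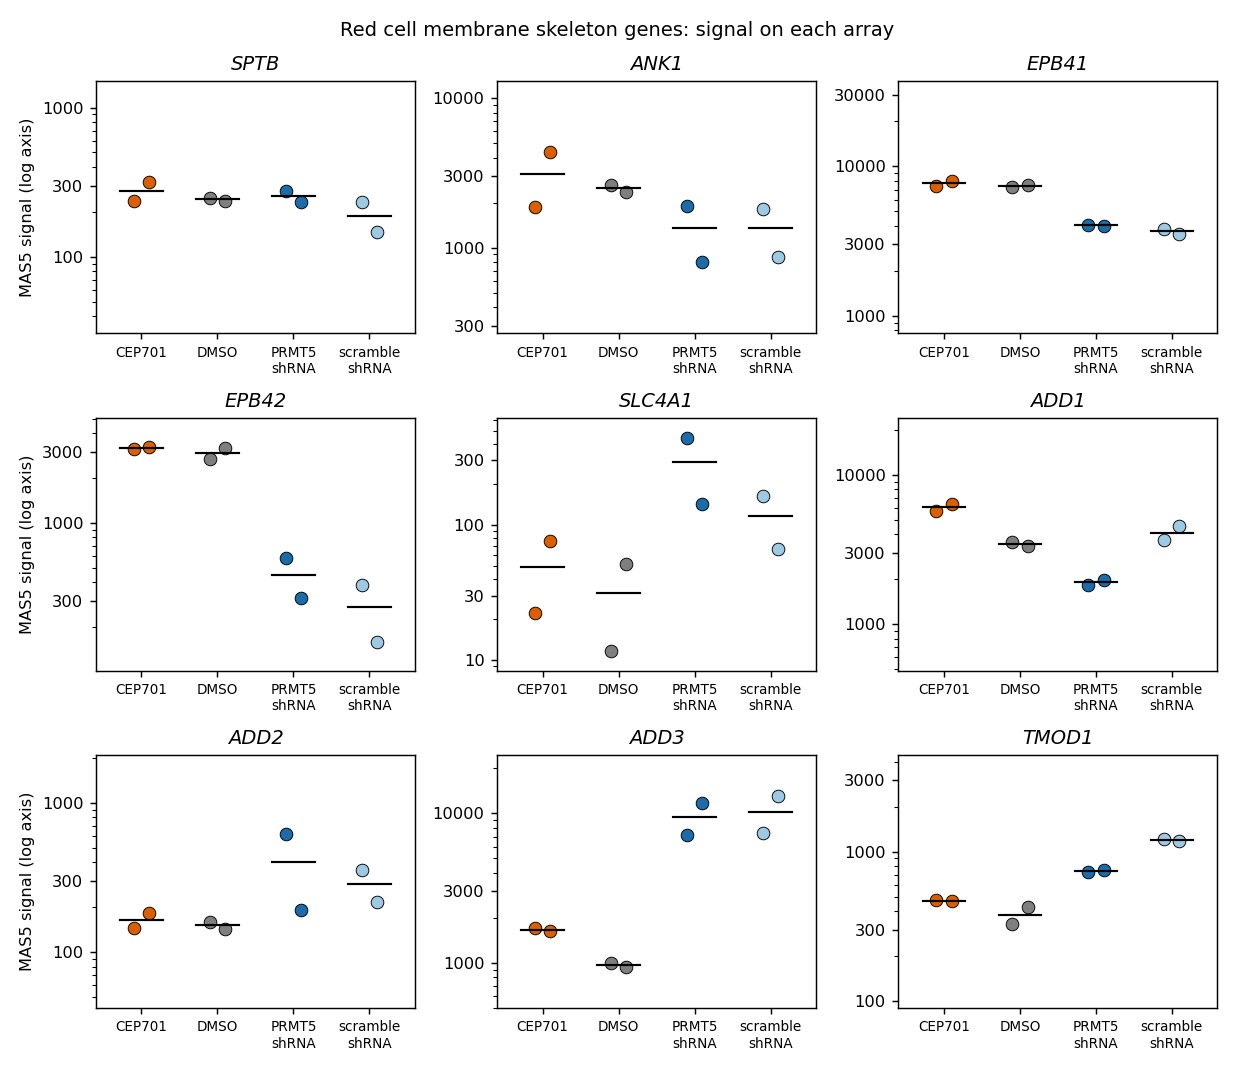
Signal of each of the 9 genes on each array, on log axes that differ between panels; points are the 2 arrays of a group (replicate 1 left, replicate 2 right) and bars are group means. ADD1 is highest with CEP701 and lowest with PRMT5 shRNA, while EPB42 and ADD3 separate the drug arm from the shRNA arm.

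With CEP701, ADD1 (alpha-adducin) rose, and it was the 1 member of 9 that passed the test, against 5.78% of all genes called, 3.74% higher and 2.04% lower. ADD1 had 5736 and 6369 on the CEP701 arrays, against 3529 and 3325 on the DMSO arrays. The groups did not overlap, and each pair of arrays lay close together. The means were 6053 ± 447 with CEP701 and 3427 ± 144 with DMSO (SD, n = 2), a rise of 1.76-fold in signal + 10 (log2 0.82 ± 0.15 SE, 95% interval 0.48 to 1.16, adjusted p = 0.0204 by limma with Benjamini-Hochberg adjustment). Its other kept probe sets gave log2 differences of 0.78 and 0.72, with adjusted p of 0.0796 and 0.0798 in a fit of the 26725 kept probe sets that name 1 gene. The call was made in 16 of 22 alternatives; it was lost without each of the 4 drug-arm arrays in turn, with log2 differences of 0.74 to 0.89, under scaling to the poly-A controls, at 0.37, and without a trend in the variance (adjusted p = 0.0829).

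ADD3 (gamma-adducin) had 1696 and 1630 on the CEP701 arrays, against 993 and 937 on the DMSO arrays. These groups did not overlap either. The log2 difference of 0.78 ± 0.29 did not pass (adjusted p = 0.135), and the other 3 probe sets of the gene gave 1.03 to 1.14, also without passing. With the 2 shRNA title suffixes fitted as a replicate block, it passed (adjusted p = 3.99e-04). It passed as well when the drug arm was fitted alone (adjusted p = 0.00188).

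ADD2 (beta-adducin, the erythroid partner of ADD1) had 146 and 184 with CEP701 and 160 and 144 with DMSO. Its groups overlapped, at a log2 difference of 0.10 (95% interval -0.97 to 1.17). Its other 5 probe sets ran from -1.17 to 0.48, and none passed.

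TMOD1, the cap of the slow-growing filament ends, had 470 and 469 with CEP701, against 326 and 423 with DMSO. Its log2 difference of 0.33 ± 0.19 did not pass (adjusted p = 0.325), although the groups did not overlap. ADD1, ADD3 and TMOD1 were thus the 3 members whose CEP701 arrays both lay above both DMSO arrays, and none lay below; among all genes 36.3% lay above and 25.7% below, 62.0% in all. The 3 of 9 above are near the share of all genes above.

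The spectrin anchor genes did not pass. EPB41 was the most tightly measured, with 7360 and 8021 with CEP701 and 7254 and 7493 with DMSO. Its 95% interval, -0.22 to 0.34 on the log2 scale, was the narrowest of the 9. EPB42 had 3122 and 3245 with CEP701 and 2685 and 3160 with DMSO (log2 0.13, interval -0.73 to 0.99).

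ANK1 had 1859 and 4347 with CEP701 and 2638 and 2365 with DMSO, so the CEP701 arrays lay on either side of the DMSO arrays (log2 0.19, interval -0.92 to 1.30). Its probe sets gave log2 differences of -0.42 to 0.37. SPTB had 236 and 317 with CEP701 and 248 and 238 with DMSO (log2 0.17, interval -0.49 to 0.82).

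SLC4A1, the anion exchanger, was weak: 22.2 and 75.7 with CEP701 and 11.7 and 51.2 with DMSO, below the filter of 60.0 except on 1 array. Of its 2 probe sets the other was above the filter on 1 of 8 arrays. Its interval ran from -1.15 to 2.21 on the log2 scale, so a change was not detectable at such signals. All 9 members had log2 differences above 0 (median 0.19, against 0.10 over all genes), but scaling to the poly-A controls, which put the median of all genes at -0.33, left 3 of them above 0.

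As a sign of RNA integrity, the control probe sets for actin gave a 5′ over 3′ ratio of 0.116 and 0.161 with CEP701 and 0.199 and 0.198 with DMSO, and 0.187 and 0.335 with PRMT5 shRNA and 0.141 and 0.179 with scramble. Those for GAPDH gave 0.787 and 0.856 with CEP701 and 0.882 and 0.809 with DMSO, which overlap, and 0.729 and 0.778 with PRMT5 shRNA and 0.846 and 0.883 with scramble. The actin ratios did not overlap between CEP701 and DMSO, lower with CEP701. Between PRMT5 shRNA and scramble neither ratio overlapped, actin higher and GAPDH lower with PRMT5 shRNA. The part of RNA integrity in the ADD1 differences was not tested.

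**Figure D2:**
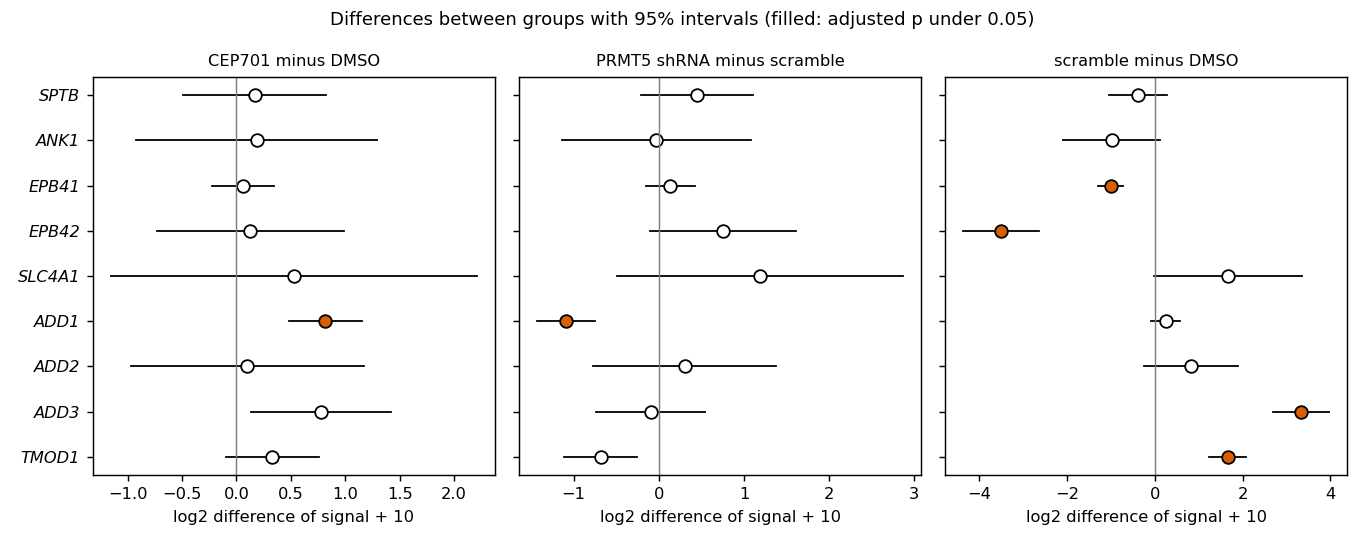
Log2 difference of signal + 10 for each gene in the CEP701, PRMT5 shRNA and scramble-against-DMSO comparisons; points are limma estimates, lines 95% intervals, filled points passed at an adjusted p under 0.05. ADD1 is the filled point in both treatment panels, at 0.82 with CEP701 and -1.09 with PRMT5 shRNA.

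With PRMT5 shRNA, ADD1 fell, and again it was the 1 member of 9 that passed, against 0.148% of all genes called, 0.141% lower and 0.00706% higher. ADD1 had 1839 and 1978 on the PRMT5 shRNA arrays, against 3667 and 4515 on the scramble arrays. The groups did not overlap. The means were 1908 ± 98.3 with PRMT5 shRNA and 4091 ± 600 with scramble (SD, n = 2), and the log2 difference was -1.09 ± 0.15 (95% interval -1.43 to -0.75, adjusted p = 0.0411). Within the replicate pairs it was -0.99 and -1.19, and with the replicate block the adjusted p was 4.35e-04.

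The probe sets of ADD1 did not move alike with the shRNA. One, 214736_s_at, had 1138 and 984 with PRMT5 shRNA and 1379 and 2142 with scramble (log2 -0.70, adjusted p = 0.511). The other, 214726_x_at, whose suffix marks probes shared with other sequences, had 278 and 392 with PRMT5 shRNA and 341 and 307 with scramble, at a log2 difference of 0.026 (adjusted p = 0.998). The chosen probe set, 208030_s_at, and 214736_s_at carry a suffix too, _s_at. Without either suffix there was 238939_at, above the filter on 0 arrays. Which probe set reads ADD1 best was not tested. Log2 differences were -1.17 to -1.05 with the other added values and filters, quantile normalization, median scaling and the replicate block. The ADD1 call was made in each of these settings. It was lost without each array in turn except scramble replicate 1 (adjusted p 0.0639 to 0.219 in those 7 fits) and when the probe sets were averaged (-0.59, adjusted p = 0.337), under poly-A scaling (-1.05, adjusted p = 0.127), without a trend (adjusted p = 0.187) and when the shRNA arm was fitted alone (adjusted p = 0.529).

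TMOD1 had 728 and 752 on the PRMT5 shRNA arrays, against 1218 and 1170 on the scramble arrays. Each pair of arrays was close and the groups did not overlap. Its log2 difference of -0.68 ± 0.19, at -0.73 and -0.63 within the replicate pairs, did not pass (adjusted p = 0.394, and 0.0837 with the block). The other TMOD1 probe set gave -0.55.

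EPB42, which binds beside SLC4A1, had 579 and 313 with PRMT5 shRNA and 385 and 159 with scramble. The arrays of the first pair were above those of the second in both groups, and PRMT5 shRNA was above scramble within each pair, by 0.57 and 0.93 on the log2 scale. The log2 difference of 0.75 ± 0.38 did not pass (adjusted p = 0.786) but passed with the replicate block (adjusted p = 0.0312).

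SLC4A1 had 441 and 144 with PRMT5 shRNA and 164 and 66.9 with scramble. Its log2 differences were 1.37 and 0.9998 within the pairs, and 1.19 ± 0.75 without them (adjusted p = 0.830); the groups overlapped. ADD2 had 615 and 192 with PRMT5 shRNA and 355 and 217 with scramble, so its pairs went opposite ways, at 0.77 and -0.17.

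ANK1 had 1903 and 797 with PRMT5 shRNA and 1826 and 865 with scramble, a log2 difference of -0.028 (interval -1.14 to 1.08). ADD3 had 7112 and 11791 with PRMT5 shRNA and 7346 and 13061 with scramble (-0.097, interval -0.74 to 0.54). In both genes the 2 pairs lay further apart than the 2 groups.

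EPB41 had 4053 and 4016 with PRMT5 shRNA and 3811 and 3534 with scramble (log2 0.14, interval -0.15 to 0.42). SPTB had 277 and 233 with PRMT5 shRNA and 232 and 146 with scramble (0.44, interval -0.21 to 1.10). Its groups nearly touched, at 233 against 232. In all, SPTB and EPB41 lay higher and ADD1 and TMOD1 lower with no overlap, 2 in each direction, against 14.1% and 16.1% of all genes (30.2% in all). The median log2 difference was 0.14, against 0.0034 over all genes.

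The levels of several members went with the title suffix that pairs the shRNA-arm arrays. The second pair minus the first, averaged over both groups, was -1.16 for ANK1, -1.04 for EPB42, -1.37 for SLC4A1 and -1.16 for ADD2 on the log2 scale, and 0.78 for ADD3. ADD1, at 0.20, EPB41, at -0.061, and TMOD1, at -0.0051, differed little between the pairs. Over all genes the median size of this difference was 0.281, and 6.48% of genes differed by at least 1. The labels do not say what the suffix marks.

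**Figure D3:**
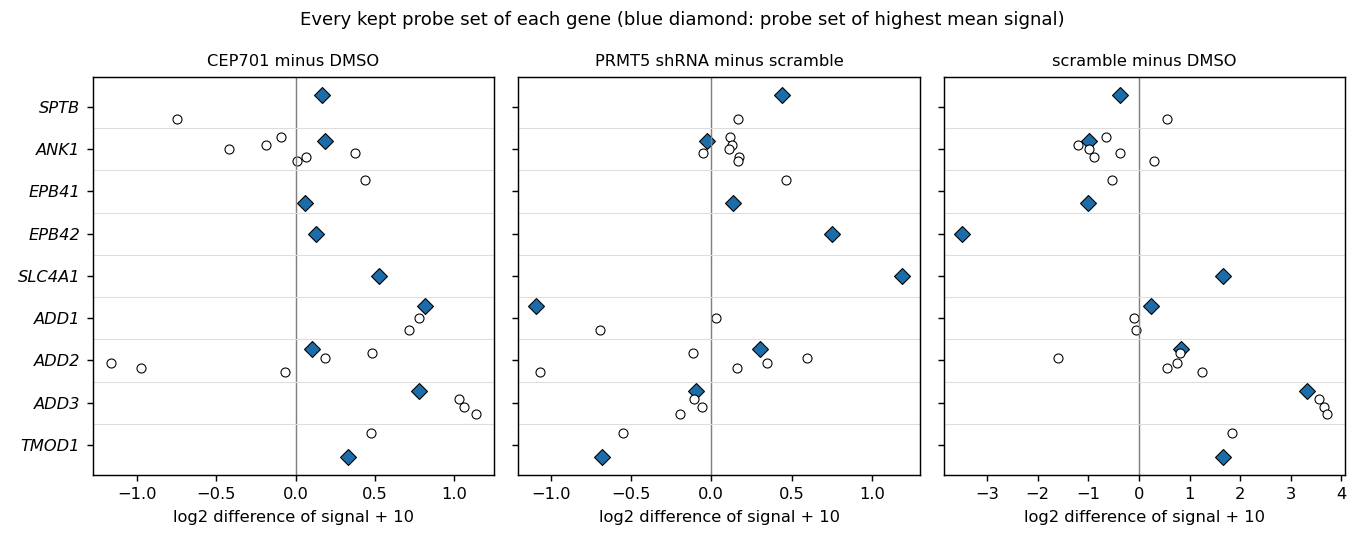
Log2 difference of signal + 10 for each of the 28 probe sets that passed the filter, in 3 comparisons; blue diamonds are the probe sets of highest mean signal, open circles the others. The 4 ADD3 probe sets lie together in each panel, the 3 ADD1 probe sets lie together with CEP701 (0.72 to 0.82) but spread from -1.09 to 0.026 with PRMT5 shRNA, and those of ADD2 scatter.

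The test of the difference between the 2 effects asked where the drug and the hairpin moved a gene unequally. ADD1 passed, with the CEP701 effect above the PRMT5 shRNA effect by 1.91 ± 0.21 on the log2 scale (adjusted p = 0.00893), the 1 member called, against 1.43% of all genes, 1.11% in that direction and 0.325% in the other. Its other probe sets gave 1.41 (adjusted p = 0.0569) and 0.75 (adjusted p = 0.255). The call was made with the other added values and filters, quantile normalization, median scaling, the mean of probe sets and the replicate block. It was lost without each drug-arm array in turn (1.83 to 1.98), under poly-A scaling (1.42) and without a trend in the variance (adjusted p = 0.0790).

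TMOD1 also lay higher with CEP701 and lower with PRMT5 shRNA on every array, as 6.75% of all genes did. Its difference of 1.01 ± 0.27 did not pass (adjusted p = 0.0954), and its other probe set gave 1.03. ADD3 had a difference of 0.88 ± 0.40 (adjusted p = 0.266). With the replicate block all 3 passed, ADD1 at 6.44e-05, ADD3 at 0.00216 and TMOD1 at 0.0161. Over the alternatives up to 2456 of 14162 genes were called in the difference, against 203 as reported. For the 6 other members the intervals of the difference included 0, the narrowest being -0.48 to 0.32 for EPB41 and the widest -3.03 to 1.72 for SLC4A1.

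The control groups of the arms were set side by side to show the level from which each treatment started. Scramble cells and DMSO cells differ in arm, virus and vehicle at once, which cannot be told apart, and 45.8% of all genes were called, 25.5% higher in scramble cells and 20.3% lower. Of the members, 2 were called higher and 2 lower, a share near that background. All 9 members had no overlap between the 2 groups, 5 higher and 4 lower, as had 74.1% of all genes, 40.8% higher and 33.2% lower. Of the markers tested, 6 of 6 monocyte and granulocyte genes and 4 of 8 megakaryocyte genes were called higher in scramble cells, and 3 erythroid genes were higher and 3 lower of 12; their part in the members' differences was not tested.

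EPB42 had 385 and 159 on the scramble arrays, against 2685 and 3160 on the DMSO arrays. That is 11.3-fold lower in scramble cells (log2 -3.50 ± 0.38, adjusted p = 8.79e-05). EPB41 was lower in scramble cells by 2.01-fold (log2 -1.004 ± 0.13, adjusted p = 2.03e-04), with 3811 and 3534 against 7254 and 7493 in DMSO cells. Its other kept probe set gave -0.53 (adjusted p = 0.297).

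ADD3 went the other way, with 7346 and 13061 on the scramble arrays against 993 and 937 on the DMSO arrays, 10.1-fold higher (log2 3.33 ± 0.29, adjusted p = 1.94e-05). All 4 of its probe sets gave log2 differences of 3.33 to 3.72. TMOD1 was 3.15-fold higher in scramble cells (log2 1.66 ± 0.19, adjusted p = 1.20e-04), with 1218 and 1170 against 326 and 423 in DMSO cells, and its other probe set gave 1.84. These 4 calls were made in every alternative that measured the gene, the other EPB41 probe set excepted.

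ADD1 was the member called in both treatments, on its probe set of highest mean signal. It was close in the 2 control groups, at 4091 ± 600 in scramble and 3427 ± 144 in DMSO cells (log2 0.25, adjusted p = 0.211). Median and poly-A scaling turned the sign of that difference, to -0.12 and -0.095. The order of the ADD1 groups by mean signal was CEP701, scramble, DMSO and PRMT5 shRNA, and scramble and DMSO did not differ beyond the test's threshold.

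ANK1 was at -0.98 ± 0.49 in scramble cells relative to DMSO cells (adjusted p = 0.133), ADD2 at 0.83 (adjusted p = 0.186), SLC4A1 at 1.67 (adjusted p = 0.0967) and SPTB at -0.38 (adjusted p = 0.320). SLC4A1 was below the filter of 60.0 on both DMSO arrays and was kept through the shRNA arm, so its value is no measured size. With the replicate block ANK1, ADD2 and SLC4A1 passed as well, SLC4A1 under that limit. The block takes the spread between the suffix pairs out of the error, although this comparison is not made within pairs. These further calls thus leave out spread among the scramble arrays. Scramble replicate 2 minus replicate 1 was -1.07 for ANK1, -0.69 for ADD2 and -1.18 for SLC4A1 on the log2 scale. The other ADD2 probe sets gave 0.56 to 1.24 except 213484_at, which went the other way at -1.61 (adjusted p = 0.0122). Those of ANK1 gave -1.21 to 0.30, and 205391_x_at (adjusted p = 0.0240) and 207087_x_at (adjusted p = 0.0364) passed.

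The genes whose pattern lay closest to a member were found for the 3 members with the widest range of group means, EPB42 (3.63 on the log2 scale), ADD3 (3.33) and SLC4A1 (2.85). The measure was the root mean square difference of log2 values over the 8 arrays, each gene centred on its own mean. Closest to EPB42 were CLECL1 (0.268), TRIM10 (0.283) and C1orf53 (0.290). Closest to ADD3 were ITPRIPL2 (0.152), ARHGAP18 (0.154) and GM2A (0.172). Closest to SLC4A1 were KRT13, PLK2 and GRAMD1B, but SLC4A1 was below the filter on 3 of the 4 drug-arm arrays, and KRT13 and PLK2 on all 4. Its range and these likenesses therefore compare values near the floor, and no distance is given.

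No other member was among these. The nearest member to EPB42 was ANK1, ranked 1129 of 14161 genes at 1.13, and the nearest to ADD3 was TMOD1, ranked 1615 at 0.958. All these patterns share the same 8 arrays and the step between the arms.

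Around the members, a list of 21 partners covers other proteins of the skeleton and the membrane proteins fastened to it, of which 16 were tested. With CEP701, 4 rose and 1 fell, beside 3.74% of all genes called higher and 2.04% lower. The median log2 difference was 0.46, against 0.10 over all genes. TPM1, a tropomyosin of the kind that lines the short actin filaments, had 6186 and 6021 with CEP701, against 2829 and 2837 with DMSO (log2 1.10, adjusted p = 0.00418). The arrays of each group nearly coincided.

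SLC2A1, the glucose transporter that adducin helps to link to the skeleton, had 2441 and 2006 with CEP701, against 1032 and 1130 with DMSO (1.03, adjusted p = 0.0222). The mean of its probe sets gave 0.85 (adjusted p = 0.120), and those without an _x_at or _s_at suffix gave 0.68 (adjusted p = 0.578). ICAM4, an adhesion protein of the Rh complex, rose by 1.01 (adjusted p = 0.0271) and KCNN4, a calcium-activated potassium channel, by 0.95 (adjusted p = 0.0373). CD47, the surface signal against phagocytosis, fell by 0.55 (adjusted p = 0.0420). The CD47 direction rests on its probe set: the mean of its probe sets gave 0.13, and 0.20 came from those without an _x_at or _s_at suffix. Each of these 5 calls was made in 14 to 17 of 22 or 23 alternatives and was lost without each of the 4 drug-arm arrays in turn (adjusted p 0.0557 to 0.271).

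With PRMT5 shRNA no partner passed by limma (median log2 difference -0.0498), and at most 1 was called in any alternative. Of lowest p were SLC2A1, with 391 and 424 on the PRMT5 shRNA arrays and 906 and 687 on the scramble arrays (log2 -0.94, adjusted p = 0.182), and RHD, at 0.41 (adjusted p = 0.853). At an unadjusted p under 0.05 the count was 1, SLC2A1, which passed with the replicate block (adjusted p = 0.0188). Probe sets of SLC2A1 without an _x_at or _s_at suffix gave 0.71 with PRMT5 shRNA and -0.029 for the difference, against the direction of the chosen one. In the test of the difference, SLC2A1 (1.97, adjusted p = 0.0188) and TPM1 (0.98, adjusted p = 0.0369) passed, both higher with CEP701, and both were lost without each drug-arm array in turn (adjusted p 0.104 to 0.177). The TPM1 call was also lost without PRMT5 shRNA replicate 1 (adjusted p = 0.0648) and without scramble replicate 2 (adjusted p = 0.0787). TPM1 stood at 0.13 with PRMT5 shRNA.

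Between the control groups 3 partners were higher and 6 lower in scramble cells. Among the lower were the Rh complex genes RHD (log2 -3.95, adjusted p = 6.07e-06) and RHAG (-1.27, adjusted p = 1.96e-04), XK (-1.08), ICAM4 (-0.98) and CD47 (-0.58, which the mean of its probe sets put at 0.013). The RHD probes may also read its near-identical neighbour, so its value is uncertain as to the gene. MPP1, a scaffold that joins EPB41 to the membrane, was higher (1.09, adjusted p = 0.00187). These shares, 3 and 6 of 16, stand beside 25.5% and 20.3% of all genes.

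**Figure D4:**
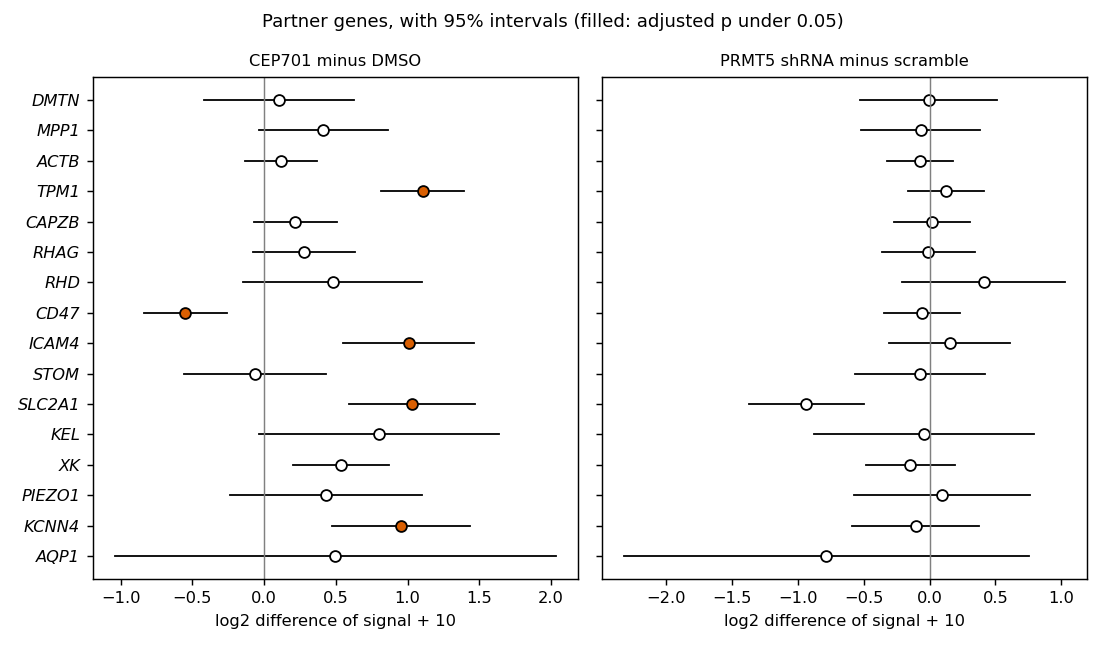
Log2 difference of signal + 10 of the 16 tested partner genes with CEP701 and with PRMT5 shRNA; points are limma estimates, lines 95% intervals, filled points passed at an adjusted p under 0.05. With CEP701, TPM1, SLC2A1, ICAM4 and KCNN4 are filled to the right of 0 and CD47 to the left, and no point is filled with PRMT5 shRNA.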

How the data were processed

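The 8 arrays carry 54675 probe sets, 62 of them controls. Biotin-labelled cRNA was made from 200 ng of RNA, per the labels. The deposited intensity values are linear signals that the authors made with MAS5 in Affymetrix Expression Console, per the submitters' processing notes; each array's mean without its lowest and highest 2% of values is 500. Genome build and versions are not given in the sources used here.

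Probe sets naming 1 gene (41097; 41043 symbols updated by Entrez identifier) were used. Signals + 10 were put on the log2 scale; a probe set was kept if it exceeded 60.0, the overall median signal, on 2 or more arrays, and the one of highest mean stood for its gene. The 4 groups were fitted together with limma 3.58.1 (lmFit, eBayes with a trend; 4 residual and 5.37 prior degrees of freedom), run in R 4.3.3. Adjusted p-values are Benjamini-Hochberg values over 14162 genes within each of 4 contrasts, and 0.05 was the threshold. Because of the added 10, fold changes understate changes of low signals. Intervals are 95% intervals of limma's moderated fit. The fit was tested on simulated data.

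As deviations from group means, paired shRNA arrays correlated (r = 0.323 over genes) and equally numbered drug arrays did not (r = -0.0115); the title suffix was therefore used as the replicate block. The members and lists were chosen with earlier results of these data known. Named are all members, the passing genes of each list (up to 6, or the 2 of lowest p) and the 3 genes closest to the 3 members of widest range. Alternatives changed the added value, filter, scaling, probe set choice, trend, block and arrays; leaving out each shRNA pair was added after seeing the data. List genes that were not tested were not analysed here.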

Additional observations from a re-analysis of the deposited data

Results flagged for a closer look

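ADD1 lay higher with CEP701 and lower with PRMT5 shRNA on both arrays of each, and the test of the difference between the effects passed (1.91 on the log2 scale, adjusted p = 0.00893 by limma). SLC2A1 lay on the same 2 sides and its difference passed (1.97, adjusted p = 0.0188). That call rests on the chosen probe set: the mean of its probe sets gave 0.97 (adjusted p = 0.240), and those without an _x_at or _s_at suffix gave -0.029. TPM1 also passed (0.98, adjusted p = 0.0369), from a rise with CEP701 beside a log2 difference of 0.13 with PRMT5 shRNA.

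TMOD1 (1.01, adjusted p = 0.0954), SLC4A2, a relative of SLC4A1 (1.25, adjusted p = 0.110), and ACTB, cytoplasmic actin (0.19, adjusted p = 0.530), lay on opposite sides in the 2 treatments on every array, and the test of the difference did not pass. The ACTB difference had the opposite sign under median and poly-A scaling and with the mean of its probe sets.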

How the results depend on the processing

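Of 1510 values of single genes under other settings, 1290 kept their direction and their side of the threshold, 89 lost the call, 43 gained one and 88 changed sign, 5 of those from a called value. Of 364 counts, 130 moved by over 1.5 times. The members called with CEP701, with PRMT5 shRNA and in the difference were 0, 0 and 0 under poly-A scaling, without a variance trend and without _x_at and _s_at probe sets, where ADD1 is not measured and 2 members were called between the control groups. The mean of probe sets left 0 members called with PRMT5 shRNA. Fitting only the arrays compared gave 2 with CEP701 and 0 with PRMT5 shRNA. Leaving out either shRNA pair, chosen after seeing the data, left 1 array in each shRNA group, so no count is given for it. Leaving out each replicate gave 0 to 1 in each of these 3 comparisons and 4 to 5 between the control groups.

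The replicate block, in the shRNA arm or in both arms, gave 2 members called with CEP701, 2 with PRMT5 shRNA, 3 in the difference and 7 between the control groups. The count of 7 leaves out the spread between the suffix pairs, as the control groups are not compared within pairs. Over the alternatives, calls among all 14162 genes reached 3208, 247, 2456 and 7800 in these 4 comparisons, against 819, 21, 203 and 6486 as reported. The share of all genes called under the block itself was not set beside the member counts, so they show nothing particular to the members.

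Over all alternatives the genes called of 14162 numbered 6 to 3208 with CEP701 (819 as reported), 0 to 247 with PRMT5 shRNA (21), 0 to 2456 in the difference (203) and 4526 to 7800 between the control groups (6486). For the partners these ranges were 0 to 9 (5), 0 to 1 (0), 0 to 7 (2) and 6 to 13 (9), and for the paralogues 0 to 4 (1), 0 to 0 (0), 0 to 2 (0) and 6 to 9 (8).

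Values whose sign changed were as follows, on the log2 scale, and the cause was not tested. Quantile normalization gave with CEP701 -0.073 for ADD2. Median scaling gave with CEP701 -0.058 for ADD2, -0.11 for EPB41 and -0.040 for EPB42, and with PRMT5 shRNA 0.0089 for ANK1, and for the difference of the effects -0.013 for ACTB, and for scramble minus DMSO -0.12 for ADD1. Scaling to the poly-A controls gave with CEP701 -0.32 for ADD2, -0.26 for ANK1, -0.39 for EPB41, -0.32 for EPB42, -0.27 for SPTB and -0.11 for TMOD1, and with PRMT5 shRNA 0.0064 for ANK1, and for the difference of the effects -0.30 for ACTB and -0.27 for ANK1, and for scramble minus DMSO -0.10 for ADD1. The mean of probe sets gave with CEP701 -0.24 for ADD2, -0.010 for ANK1, 0.13 for CD47 and -0.29 for SPTB, and with PRMT5 shRNA 0.088 for ANK1, -0.33 for RHD and -0.14 for TGM2, and for the difference of the effects -0.11 for ACTB and -0.10 for ANK1, and for scramble minus DMSO 0.013 for CD47 and 0.088 for SPTB. Leaving out _x_at and _s_at probe sets gave with CEP701 -1.17 for ADD2 and 0.20 for CD47, and with PRMT5 shRNA 0.17 for ANK1 and 0.71 for SLC2A1, and for the difference of the effects -0.16 for ANK1 and -0.029 for SLC2A1, and for scramble minus DMSO 0.30 for ANK1. Leaving out shRNA suffix pair 1 gave with PRMT5 shRNA -0.17 for ADD2 and -0.18 for RHD, and for the difference of the effects 0.27 for ADD2. Leaving out shRNA suffix pair 2 gave with PRMT5 shRNA 0.059 for ANK1. Probe set 205389_s_at gave with CEP701 -0.093 for ANK1, and with PRMT5 shRNA 0.12 for ANK1, and for the difference of the effects -0.21 for ANK1. Probe set 205391_x_at gave with CEP701 -0.19 for ANK1, and with PRMT5 shRNA 0.13 for ANK1, and for the difference of the effects -0.32 for ANK1. Probe set 207087_x_at gave with CEP701 -0.42 for ANK1, and with PRMT5 shRNA 0.11 for ANK1, and for the difference of the effects -0.53 for ANK1. Probe set 214145_s_at gave with CEP701 -0.75 for SPTB, and for scramble minus DMSO 0.56 for SPTB. Probe set 230988_at gave with CEP701 -1.17 for ADD2. Probe set 237336_at gave with CEP701 -0.98 for ADD2. Probe set 239530_at gave with CEP701 -0.067 for ADD2, and with PRMT5 shRNA -1.07 for ADD2, and for the difference of the effects 1.0003 for ADD2. Probe set 206807_s_at gave with PRMT5 shRNA -0.11 for ADD2, and for the difference of the effects 0.60 for ADD2. Probe set 208353_x_at gave with PRMT5 shRNA 0.17 for ANK1, and for the difference of the effects -0.11 for ANK1. Probe set 214726_x_at gave with PRMT5 shRNA 0.026 for ADD1, and for scramble minus DMSO -0.10 for ADD1. Probe set 240363_at gave with PRMT5 shRNA 0.17 for ANK1, and for the difference of the effects -0.16 for ANK1, and for scramble minus DMSO 0.30 for ANK1. Probe set 213484_at gave for scramble minus DMSO -1.61 for ADD2. Probe set 214736_s_at gave for scramble minus DMSO -0.054 for ADD1. Leaving out single replicates gave ranges that crossed 0. With CEP701 they were -0.057 to 0.26 for ADD2, -0.42 to 0.80 for ANK1, -0.0025 to 0.12 for EPB41, -0.22 to 1.28 for SLC4A1 and -0.039 to 0.37 for SPTB. With PRMT5 shRNA they were -0.51 to 1.12 for ADD2, -0.51 to 0.32 for ADD3, -0.65 to 0.59 for ANK1 and -0.060 to 0.88 for RHD. For the difference they were -1.43 to 0.12 for SLC4A1, -0.41 to 0.84 for ANK1, -1.02 to 0.61 for ADD2 and -0.59 to 0.040 for SPTB. SLC4A1 and the weaker ADD2 probe sets lie near the filter, where signal over background limits what can be measured.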

Other observations

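The wider families of the members gave a list of 20 paralogues, of which 14 were tested. With CEP701, 1 rose, against 3.74% of all genes: EPB41L4A, a relative of EPB41, had 580 and 646 with CEP701, against 228 and 224 with DMSO (log2 1.399, adjusted p = 0.0131 by limma). That call was lost without each of the 4 drug-arm arrays in turn (adjusted p 0.0903 to 0.127). The median log2 difference of the list was 0.36, against 0.10 over all genes.

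With PRMT5 shRNA no paralogue passed by limma, in the main setting or any alternative, and 1 had an unadjusted p under 0.05. That was SLC4A2, an anion exchanger of many tissues, with 156 and 210 on the PRMT5 shRNA arrays and 317 and 401 on the scramble arrays (log2 -0.94, adjusted p = 0.370). TGM2, a transglutaminase related to EPB42, stood at 0.60 (adjusted p = 0.747), and at -0.14 with the mean of its probe sets.

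Between the control groups 4 paralogues were higher and 4 lower in scramble cells, beside 25.5% and 20.3% of all genes. EPB41L3 had 820 and 737 with scramble, against 19.6 and 20.7 with DMSO, below the filter of 60.0, so its call (adjusted p = 4.60e-05) has no exact size: the log2 difference ran from 3.56 to 5.20 with the value added before the log. TMOD3 was higher by 0.91 (adjusted p = 0.00258). SPTBN1, the widely expressed beta-spectrin, was at -2.17 (adjusted p = 3.67e-05), TGM2 at -2.02, EPB41L5 at -2.01 and EPB41L2 at -1.21 (adjusted p = 0.00190). The EPB41L2 call was made in 22 of 23 alternatives, over which its log2 difference ran from -1.57 to -0.11.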
